A study of Rattus norvegicus with 10 samples.

Results

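The cytochrome P450 genes of the fetal rat heart were taken as every gene whose symbol is Cyp followed by a digit and whose value was above 0 in at least 5 of 10 libraries. Of the 18025 genes listed, 56 carried such a symbol and 38 met the rule. The libraries came from hearts of Sprague-Dawley fetuses at E19.5, embryonic day 19.5, with 5 hearts in each of 2 groups. Sample titles and the study's text speak of hearts, while a figure legend of the study speaks of isolated cardiomyocytes. Dams of the control group (CON) were 3-month-old wild-type females injected with citric acid buffer, the vehicle. Dams of the hyperglycemia group (HG) were of the same age and strain and received streptozotocin, a toxin of the insulin-producing beta cells, into the abdomen on 3 consecutive days after overnight fasting. Their glucose was checked 7 days later, and both groups were mated with males of normal blood glucose. No altered allele is given for dams or fetuses. The sources differ on whether the injections came before or after mating, so the stage at which exposure began is not known here. The sources used here do not give the litter or the sex of each heart, so p-values measure the spread between these hearts, some of which may be littermates.

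Cytochromes P450 are heme enzymes that insert an oxygen atom into fatty acids, sterols, retinoids, vitamin D and foreign compounds. Those of the endoplasmic reticulum take electrons from the reductase Por, with help from cytochrome b5, and those of mitochondria take them from the ferredoxin Fdx1 and its reductase Fdxr. In the heart the family is known best for the Cyp2j enzymes, which turn arachidonic acid into epoxyeicosatrienoic acids, lipid signals that the soluble epoxide hydrolase Ephx2 breaks down, and for the Cyp4 enzymes, which hydroxylate fatty acids at their tail.

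Values are FPKM, fragments per kilobase of transcript scaled to library size, which are corrected for gene length and so may be compared between genes. Between 16672876 and 19109844 reads lay on genes in each library, and 16041 to 16313 genes were above 0. Cardiomyocyte markers were high in every library, with 10 genes that summed to between 31176 and 32627 FPKM in CON and between 26078 and 30360 FPKM in HG. Of these 10 markers, 8 fell and Nppa, the atrial natriuretic peptide, rose; with quantile normalization 5 fell, Tnnt2, Myl2 and Myl3 no longer passing, and with median-of-ratios factors 9 fell. In bulk RNA, fewer cells of a type and less RNA per cell cannot be told apart.

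Differences are given as HG minus CON on the log2(FPKM + 0.1) scale, which understates changes of genes near or below 0.1 FPKM. They were tested with limma, a moderated linear model, in all 14542 genes whose mean over the 10 libraries reached 0.1 FPKM, with Benjamini-Hochberg adjustment over all of them. A gene is said to have risen or fallen where its adjusted p was under 0.05. Over all genes 40.1% passed, 28.4% higher and 11.8% lower in HG.

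Of the 28 cytochrome P450 genes tested, 7 passed, which is 25.0% against 40.1% of all genes. Cyp2j10, Cyp2j4 and Cyp2e1 rose, and Cyp11a1, Cyp17a1, Cyp20a1 and Cyp4v3 fell. Cyp2j10 and Cyp2j4 also changed by more than 1 on the log2 scale, both upward, as did 1.94% of all genes tested, 0.866% upward. In 5 of the 28 the lowest library of the higher group lay above the highest of the lower group, against 27.4% of all genes tested. Of these 5, 2 were higher in HG (19.3% of all genes) and 3 lower (8.12% of all genes). The median difference was 0.10 over the 28 members and 0.09 over all genes tested, and the median absolute difference was 0.25 and 0.19. Tested members were low genes, with a median of mean FPKM of 0.858 against 7.26 over all genes tested. The shares that passed are therefore also given by level. At a mean between 0.1 and 0.5 FPKM, 1 of 9 members and 15.3% of genes passed. Between 0.5 and 2 FPKM, 5 of 12 members and 29.8% of genes passed, and from 2 FPKM up, 1 of 7 members and 46.5% of genes passed.

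The upstream sequences of the members that passed are shown first, because the nuclear receptors and the aryl hydrocarbon receptor described further on act on many cytochrome P450 genes from such regions. Each run is the 250 bases before the gene's start in RefSeq on the rat assembly GRCr8, written 5′ to 3′ on the strand of the gene. It was searched on both strands for AGGTCA, the half-site that many nuclear receptors bind, and for GCGTG, the core of the aryl hydrocarbon receptor element. The 2 motifs share no base here, and capitals mark each match.
Cyp2j10 (chr5:116110810-116111059, minus strand): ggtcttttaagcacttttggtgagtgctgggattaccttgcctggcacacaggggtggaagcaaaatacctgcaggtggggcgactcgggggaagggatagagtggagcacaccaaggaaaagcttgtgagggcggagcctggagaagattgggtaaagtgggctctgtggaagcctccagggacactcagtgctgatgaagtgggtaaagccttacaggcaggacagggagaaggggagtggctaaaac
Cyp2j4 (chr5:116323043-116323292, minus strand): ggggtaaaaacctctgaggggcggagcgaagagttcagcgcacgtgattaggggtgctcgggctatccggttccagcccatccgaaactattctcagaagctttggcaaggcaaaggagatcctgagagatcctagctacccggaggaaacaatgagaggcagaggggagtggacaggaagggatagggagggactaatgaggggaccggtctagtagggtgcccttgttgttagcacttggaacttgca
Cyp2e1 (chr1:205269717-205269966, plus strand): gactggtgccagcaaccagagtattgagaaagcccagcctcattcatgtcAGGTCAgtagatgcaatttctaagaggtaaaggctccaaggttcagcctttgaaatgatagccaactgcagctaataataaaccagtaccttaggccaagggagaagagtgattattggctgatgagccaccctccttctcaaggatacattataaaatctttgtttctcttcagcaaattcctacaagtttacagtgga
Cyp11a1 (chr8:67318415-67318664, plus strand): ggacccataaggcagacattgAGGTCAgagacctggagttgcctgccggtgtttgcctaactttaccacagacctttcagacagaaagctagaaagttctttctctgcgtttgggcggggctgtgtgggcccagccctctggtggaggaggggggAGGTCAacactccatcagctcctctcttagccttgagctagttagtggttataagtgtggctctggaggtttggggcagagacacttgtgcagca
Cyp20a1 (chr9:69249623-69249872, plus strand): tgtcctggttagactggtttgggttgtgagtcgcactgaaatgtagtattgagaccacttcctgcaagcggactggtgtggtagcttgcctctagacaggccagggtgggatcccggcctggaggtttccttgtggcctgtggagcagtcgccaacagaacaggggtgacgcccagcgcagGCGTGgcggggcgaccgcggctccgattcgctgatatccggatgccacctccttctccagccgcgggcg
The half-site stood 229 and 95 bases before the start of Cyp11a1 and 200 bases before that of Cyp2e1, and the aryl hydrocarbon receptor core stood 69 bases before that of Cyp20a1. Neither motif was found in the Cyp2j10 and Cyp2j4 windows. Over all 33469 RefSeq windows of this length, 14.1% held the half-site and 25.9% the core. Of the 28 tested members, 23 were matched to a window by symbol, of which 8 held the half-site and 11 the core. Cyp17a1 and Cyp4v3 are named here without sequence.

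A pair of genes carried most of the family's RNA. Cyp51 and Cyp20a1 were the members with a mean of at least 10 FPKM and held 55.7% of the FPKM summed over the 38 members. The 1 FPKM mark was reached by 13 members, 15 more lay between 0.1 and 1 FPKM, and 10 lay below 0.1 FPKM with at most 7 reads in any library. The summed FPKM was 72.6 ± 2.15 (SD, n = 5) in CON and 72.0 ± 3.12 (SD, n = 5) in HG, and the ranges of 69.7 to 75.7 and 67.4 to 75.6 overlapped almost whole. The filter at 0.1 FPKM fell between Cyp2w1, at a mean of 0.0992 FPKM, and Cyp2d1, at 0.102 FPKM.

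**Figure D1:**
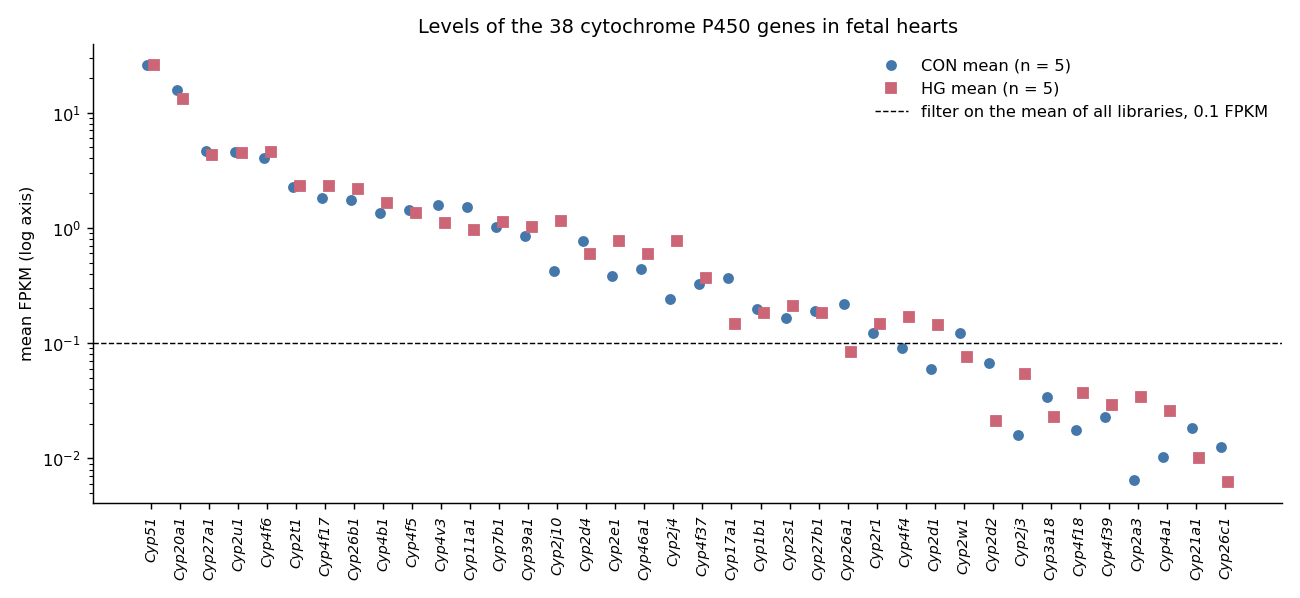
Mean FPKM of the 38 cytochrome P450 genes on a log axis, in order of their mean over all 10 libraries, with a circle for the mean of the 5 CON hearts and a square for that of the 5 HG hearts; the dashed line is the filter at 0.1 FPKM. Cyp51 and Cyp20a1 stand above 10 FPKM, and the circle and square part most, among the tested genes, at Cyp2j10, Cyp2j4, Cyp17a1 and Cyp26a1.

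Of the Cyp2j epoxygenases, the 2 that could be tested, Cyp2j10 and Cyp2j4, rose. In the CON hearts, Cyp2j10 read 0.50, 0.276, 0.485, 0.442 and 0.426 FPKM, and in the HG hearts at 1.45, 1.20, 0.957, 1.22 and 0.875 FPKM. Every HG heart lay above every CON heart, and the lowest HG heart was at 0.875 FPKM against 0.50 FPKM in the highest CON heart. The means were 0.426 ± 0.0891 and 1.14 ± 0.229 FPKM (SD, n = 5), a difference of 1.24 ± 0.169 (SE, adjusted p = 0.000153). Cyp2j4 read 0.400, 0.117, 0.0724, 0.328 and 0.289 FPKM in CON and 0.646, 0.742, 0.958, 0.555 and 0.971 FPKM in HG. These groups did not overlap either, although CON2 and CON3 stood far below the other CON hearts. The Cyp2j4 means were 0.241 ± 0.140 and 0.774 ± 0.186 FPKM (SD, n = 5), a difference of 1.45 ± 0.290 (SE, adjusted p = 0.00195). Both rest on few reads, 10 to 18 for Cyp2j10 and 3 to 17 for Cyp2j4 in a CON library, and 29 to 55 and 23 to 39 in an HG library. The size of the change moved with the pseudocount and the other settings, a plain ratio of mean FPKM among them. It ran from 0.58 to 1.42 for Cyp2j10 and from 0.52 to 1.85 for Cyp2j4. Each gene passed in all 20 alternatives in which it was tested.

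The third gene of the subfamily, Cyp2j3, fell below the filter and was not tested, with means of 0.0161 ± 0.0241 FPKM for CON hearts and 0.0541 ± 0.0182 FPKM for HG hearts (SD, n = 5). Cyp2j genes resemble each other closely in sequence, so the split of reads between them is uncertain. The split also enters their summed FPKM, since FPKM per read differs between the genes. That sum ranged from 0.392 to 0.899 FPKM in CON and from 1.83 to 2.14 FPKM in HG, with no overlap. On GRCr8, Cyp2j10, Cyp2j16, Cyp2j4 and Cyp2j3 lie in a row, and Cyp2j16 was not analysed here. The next genes beyond Cyp2j10, Hook1 and Fggy, did not pass, with differences of 0.03 (adjusted p = 0.813) and -0.10 (adjusted p = 0.599). Cyp2j10, Cyp2j4 and Cyp17a1 were also picked by the study from these libraries in its own list of genes tied to CaMKIIδ, so that list is not independent evidence of their direction.

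Among the enzymes that supply and consume the products of Cyp2j, 3 of 11 tested rose and 1 fell, beside 28.4% and 11.8% of all genes. Ephx2, the soluble epoxide hydrolase, ranged from 6.75 to 13.4 FPKM in CON and from 12.5 to 16.6 FPKM in HG. Its mean rose from 8.48 ± 2.79 to 13.7 ± 1.64 FPKM (SD, n = 5), a difference of 0.73 (adjusted p = 0.00338), with overlap at 1 end of each group. Pla2g4a, the phospholipase that frees arachidonic acid from membranes, rose by 0.55 (adjusted p = 0.00372). Tbxas1, thromboxane synthase and itself a cytochrome P450 by structure, rose by 0.73 (adjusted p = 0.0186) from 0.0884 to 0.210 FPKM. The CON mean of Tbxas1 lay below 0.1 FPKM, so this gene met the filter only through the HG hearts. Of the macrophage markers, 3 of 7 rose and 1 fell, and their part in the Tbxas1 difference was not tested. The platelet-type lipoxygenase Alox12 fell by 0.71 (adjusted p = 0.00841). Cyclooxygenases Ptgs1 and Ptgs2, prostacyclin synthase Ptgis and the microsomal epoxide hydrolase Ephx1 did not pass.

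The Cyp4 fatty acid hydroxylases did not move together. Cyp4v3, the rat counterpart of a human fatty acid hydroxylase linked to a retinal dystrophy, read 1.90, 1.22, 1.60, 1.38 and 1.85 FPKM in CON and 1.00, 1.21, 0.971, 1.29 and 1.03 FPKM in HG. It fell by 0.48 on the log2 scale (SE 0.135, adjusted p = 0.0133), although CON2 lay below HG4 and the groups overlapped. Cyp4f6 was the most abundant of its subfamily, at 3.89, 3.50, 4.79, 3.93 and 3.98 FPKM in CON and 4.15, 4.76, 4.88, 3.66 and 5.23 FPKM in HG, a difference of 0.17 (adjusted p = 0.234). Cyp4f17 read 2.23, 1.34, 1.42, 1.96 and 2.13 FPKM in CON and 2.69, 1.91, 2.91, 1.82 and 2.12 FPKM in HG, a difference of 0.32 (adjusted p = 0.153). In both genes the groups overlapped widely. The other Cyp4 genes tested, Cyp4b1, Cyp4f4, Cyp4f5 and Cyp4f37, did not pass, with differences from -0.11 to 0.51. The 8 Cyp4f genes listed summed to 7.76 ± 0.609 FPKM for CON hearts and 8.78 ± 1.05 FPKM for HG hearts (SD, n = 5), and these, too, share close sequence. Cyp2u1, another fatty acid hydroxylase, gave 4.57, 4.04, 4.39, 5.09 and 4.52 FPKM in CON and 4.20, 4.64, 4.14, 4.14 and 4.99 FPKM in HG. Its difference was -0.03 with a 95% interval from -0.20 to 0.14.

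Of the 17 genes for fatty acid epoxygenation and hydroxylation, 14 were members and 10 were tested, of which 2 rose, 1 fell and 7 did not pass. Over all genes tested 28.4% rose and 11.8% fell.

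**Figure D2:**
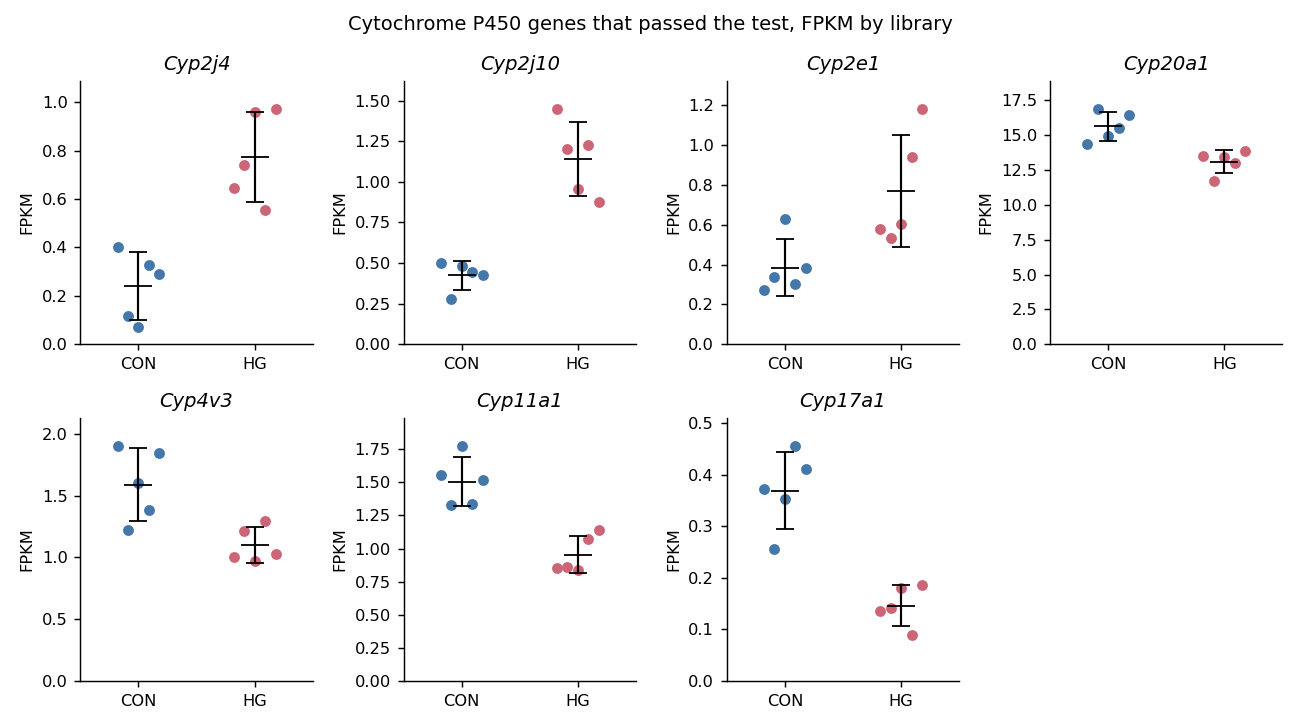
FPKM in each library for the 7 cytochrome P450 genes that passed the test, CON on the left and HG on the right of each panel, with dots in replicate order and a bar for the mean ± SD (n = 5); each axis starts at 0. The groups are apart for Cyp2j4, Cyp2j10, Cyp20a1, Cyp11a1 and Cyp17a1 and overlap for Cyp2e1 and Cyp4v3.

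Both steroidogenic enzymes that could be tested fell. Cyp11a1, the mitochondrial enzyme that cuts the side chain of cholesterol to start steroid synthesis, read 1.56, 1.33, 1.77, 1.33 and 1.52 FPKM in CON and 0.854, 0.864, 0.839, 1.07 and 1.14 FPKM in HG. No HG heart reached the lowest CON heart. Its mean went from 1.50 ± 0.185 to 0.953 ± 0.141 FPKM (SD, n = 5), a difference of -0.61 ± 0.121 (SE, adjusted p = 0.00187), on 55 to 71 reads in a CON library and 33 to 43 in an HG library. Cyp17a1, which makes the precursors of sex steroids, read 0.373, 0.256, 0.353, 0.456 and 0.411 FPKM in CON and 0.136, 0.141, 0.180, 0.0882 and 0.187 FPKM in HG, again without overlap. The Cyp17a1 difference was -0.93 ± 0.187 (SE, adjusted p = 0.00195). It ranged from -1.34 to -0.26 over the alternatives and a plain ratio of mean FPKM. Cyp17a1 passed in all 20 alternatives in which it was tested. A library held 9 to 16 reads of this gene in CON and 3 to 6 in HG. Most cardiomyocyte markers fell in the same hearts as deposited, and their part in the lower levels of Cyp11a1, Cyp17a1, Cyp20a1 and Cyp4v3 was not tested.

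The other cytochromes P450 of steroid synthesis were at or near 0 in these hearts. Cyp21a1 had means of 0.0182 and 0.0101 FPKM, and Cyp11b2 and Cyp19a1 were not above 0 in enough libraries to be members. Hsd3b1 stood at 0 FPKM in every CON heart and averaged 0.0267 FPKM over HG hearts, and Nr5a1, the receptor that drives steroid genes in adrenal and gonad, at 0.00988 and 0.00652 FPKM. Star, which carries cholesterol into mitochondria, averaged 0.520 FPKM in CON and 0.466 FPKM in HG and did not pass (difference -0.17, adjusted p = 0.683). Outside the cytochromes P450, 3 of 12 steroid genes tested passed, beside 40.1% of all genes. Tspo, a protein of the outer mitochondrial membrane, fell by 0.46 (adjusted p = 0.000661), while Hsd17b12 and Srd5a1 rose by 0.27 (adjusted p = 0.000152) and 0.48 (adjusted p = 0.00446).

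No cytochrome P450 of the sterol and bile acid group passed the test. Cyp51, which removes a methyl group from lanosterol on the way to cholesterol, was the most abundant member, at 29.1, 25.2, 25.7, 25.2 and 24.4 FPKM in CON and 30.3, 22.9, 25.6, 27.7 and 23.2 FPKM in HG. CON1 and HG1 were the high hearts of their groups, and the groups overlapped. The means were 25.9 ± 1.84 and 26.0 ± 3.12 FPKM (SD, n = 5), with a 95% interval of the log2 difference from -0.17 to 0.16 (adjusted p = 0.973). Of the 10 enzymes that work before and after it in the same pathway, 8 rose and none fell, beside 28.4% of all genes that rose. Among the 8 were Msmo1, by 0.51 (adjusted p = 0.00108), Lss, which makes lanosterol, by 0.47 (adjusted p = 0.000583), and Sqle, by 0.31 (adjusted p = 0.00158). With each library scaled by median-of-ratios factors, 5 of the 10 passed, again with none lower, beside 15.7% of all genes that rose. Srebf2, the factor that drives these genes, rose by 0.21 (adjusted p = 0.0235), a call that was lost under those factors.

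A comparison chosen after these values were seen set Cyp51 against the mean of those 10 enzymes within each heart, on the log2(FPKM + 0.1) scale. Cyp51 stood 1.82 ± 0.0913 above them in CON and 1.51 ± 0.0920 above them in HG (SD, n = 5), so its lead was 0.31 smaller in HG. The ranges, 1.71 to 1.91 and 1.43 to 1.65, did not overlap. Since the comparison was prompted by the values themselves, it is given as a description with no test.

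Of the other sterol and bile acid enzymes, Cyp27a1, the mitochondrial sterol 27-hydroxylase, read 5.37, 4.04, 4.84, 4.17 and 4.81 FPKM in CON and 3.57, 4.01, 4.44, 3.75 and 5.73 FPKM in HG. The difference of -0.12 (adjusted p = 0.463) was within the spread between hearts, and HG5 was the highest of all 10. Cyp46a1, the cholesterol 24-hydroxylase, ranged from 0.415 to 0.487 FPKM in CON and from 0.440 to 0.728 FPKM in HG, a difference of 0.35 that missed the threshold (adjusted p = 0.0668). The oxysterol hydroxylases Cyp7b1 and Cyp39a1 did not pass, at 0.10 (adjusted p = 0.671) and 0.23 (adjusted p = 0.178). Cyp7a1, the first enzyme of bile acid synthesis in liver, was not a member. All 5 tested genes of this group therefore missed the threshold.

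The retinoic acid hydroxylases lay in opposite directions without passing. Cyp26b1 read 1.95, 2.02, 1.58, 1.38 and 1.79 FPKM in CON and 2.00, 2.46, 2.01, 1.78 and 2.56 FPKM in HG, a difference of 0.29 (95% interval 0.02 to 0.57, adjusted p = 0.0858). Cyp26a1 read 0.383, 0.254, 0.197, 0.0636 and 0.196 FPKM in CON and 0.121, 0.157, 0.0334, 0 and 0.104 FPKM in HG, a difference of -0.80 (95% interval -1.52 to -0.08, adjusted p = 0.0744). In each gene the groups overlapped, CON4 being low for both, and Cyp26a1 had at most 12 reads in a library. Cyp26b1 exceeded Cyp26a1 by 2.60 ± 0.390 in CON and by 3.70 ± 0.424 in HG on the log2 scale (SD, n = 5). This comparison was not planned and is given as a description with no test. Cyp26a1 had 0 to 5 reads in an HG library, so the HG gap leans on the 0.1 FPKM added before the log. Cyp26c1 was below the filter.

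Around these enzymes, 5 of 9 genes for making and carrying retinoids rose, beside 28.4% of all genes tested. Aldh1a2, which makes retinoic acid in the heart's outer layer, rose by 0.40 (adjusted p = 0.00368) from 10.7 ± 1.49 to 14.1 ± 1.06 FPKM (SD, n = 5). Aldh1a3, Crabp2 and Dhrs3 rose by 0.38, 0.37 and 0.35. With median-of-ratios factors, 3 of the 9 rose and Rdh10, which makes retinal, fell (adjusted p = 0.0207), against an adjusted p of 0.0641 as deposited. Under those factors 15.7% of all genes tested rose and 17.5% fell. Of the epicardial markers, a list that also holds Aldh1a2, 2 of 7 rose and 1 fell.

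Cyp2e1, the ethanol-inducible enzyme that is highest in liver, read 0.272, 0.337, 0.627, 0.304 and 0.382 FPKM in CON and 0.579, 0.535, 0.603, 0.940 and 1.18 FPKM in HG. CON3 lay above 3 of the HG hearts, and the groups overlapped through it alone. The mean rose from 0.384 ± 0.142 to 0.767 ± 0.281 FPKM (SD, n = 5), a difference of 0.83 ± 0.236 (SE, adjusted p = 0.0150), which was 0.98 (adjusted p = 0.00556) without CON3. CON3 was also the library richest in hepatocyte markers, whose summed FPKM ran from 7.24 to 101 in CON and from 6.94 to 7.62 in HG. Most of the HG sum was a single marker, Tf, which did not pass. Tf ranged from 4.07 to 13.1 FPKM in CON and from 4.02 to 5.39 FPKM in HG. Alb, serum albumin, held 1231 reads in CON3 and 2 to 15 in an HG library. Of the 11 hepatocyte markers tested 5 fell and none rose as deposited, but Alb passed in 6 and Apoa1 in 7 of 21 alternatives. Among those that fell, Afp and Ahsg averaged 0.059 and 0.0046 FPKM in HG, so they met the filter only through the CON hearts. Most of their CON reads lay in CON3, which held 958 of Afp and 190 of Ahsg. Cps1, another hepatocyte gene, leaned upward without passing (difference 0.55, adjusted p = 0.192). The part of liver RNA in the Cyp2e1 difference was not tested.

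Cyp20a1, a widely expressed member whose substrate is not settled, read 14.4, 16.9, 14.9, 15.5 and 16.5 FPKM in CON and 13.5, 11.7, 13.4, 13.0 and 13.9 FPKM in HG. The groups did not overlap, though the gap between CON1 and HG5 was small. It fell by 0.25 on the log2 scale (SE 0.0587, adjusted p = 0.00492), the smallest change among the 7 that passed and the one with the most reads, 460 to 656 in a library. Cyp2t1 read 1.96, 2.29, 2.07, 2.38 and 2.64 FPKM in CON and 2.15, 2.86, 2.31, 2.10 and 2.01 FPKM in HG, a difference of 0.01 with a 95% interval from -0.23 to 0.25. The xenobiotic enzymes Cyp2d1, Cyp2d4 and Cyp2s1 did not pass, with differences of 0.64, -0.36 and 0.20. Cyp2d1 had at most 8 reads in a library, and the Cyp2d genes share close sequence. In the vitamin D group, the 25-hydroxylase Cyp2r1 and the 1α-hydroxylase Cyp27b1 stood at 0.124 to 0.189 FPKM on average in each group and did not pass.

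**Figure D3:**
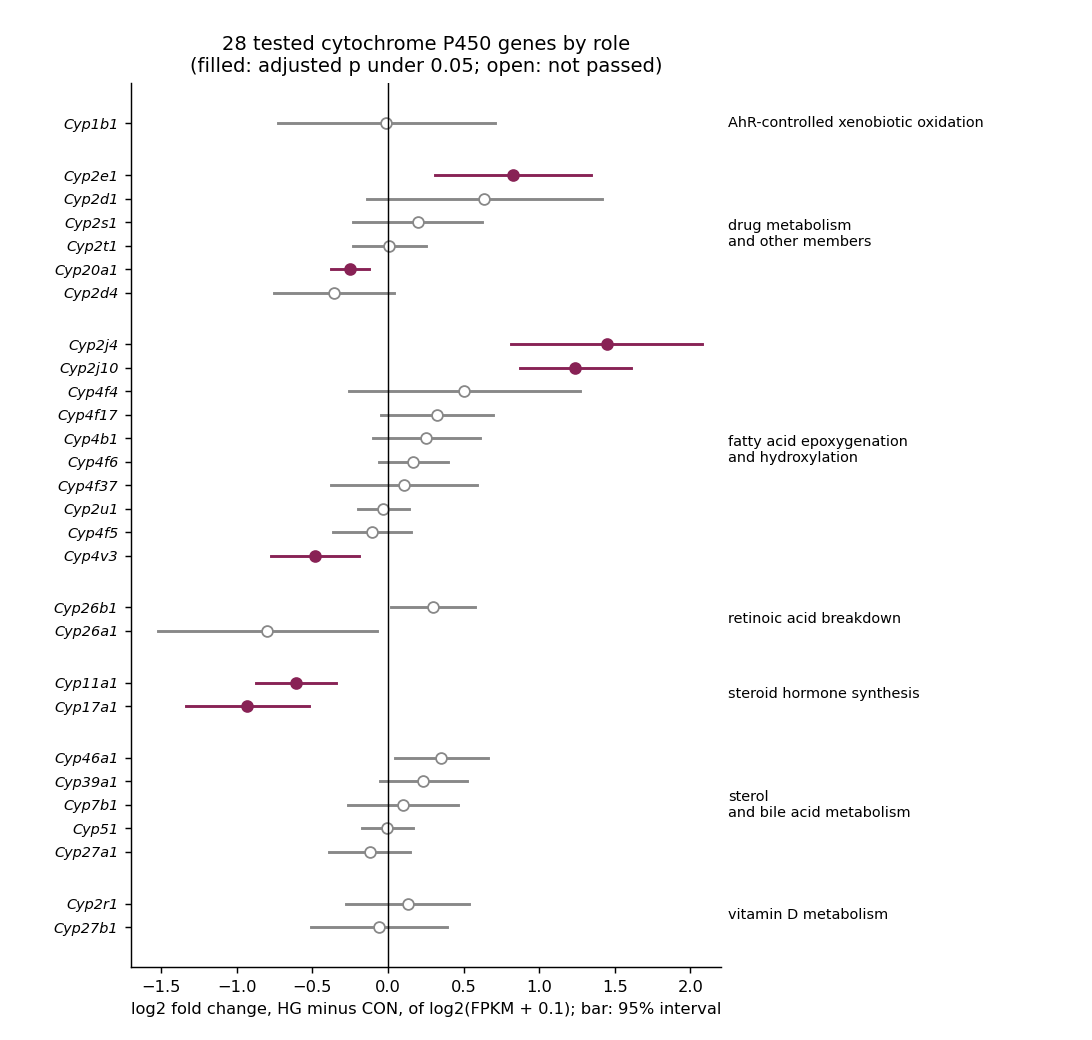
Difference between HG and CON in log2(FPKM + 0.1), with its 95% interval, for the 28 tested cytochrome P450 genes grouped by role; filled points passed the test and open points did not. Intervals are wide for genes of few reads such as Cyp26a1, Cyp2d1 and Cyp4f4 and narrow for Cyp51 and Cyp20a1.

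The Cyp1 genes, which the aryl hydrocarbon receptor Ahr switches on in response to dioxin-like compounds, were low or near 0. Cyp1a1 and Cyp1a2 were not members. Cyp1b1 read 0.182, 0.316, 0.257, 0.0226 and 0.210 FPKM in CON and 0.108, 0.336, 0.214, 0.140 and 0.124 FPKM in HG. CON4 held a single read, and the 95% interval of the difference, -0.73 to 0.71, was too wide to read. The receptor itself did not pass (difference -0.15, adjusted p = 0.451), nor did its partner Arnt, while the related Arnt2 rose by 1.36 (adjusted p = 2.25e-06) from 0.824 ± 0.0924 to 2.26 ± 0.183 FPKM (SD, n = 5). Among genes of the same battery outside the family, Nqo1 and Tiparp did not pass and Ugt1a6 fell by 0.82 (adjusted p = 0.0179) from a level of 0.183 FPKM. That level is near the 0.1 FPKM filter, which Ugt1a6 may have met only through the CON hearts.

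Of the 17 receptors and partners tested, 2 rose and 4 fell, beside 28.4% and 11.8% of all genes. Ppara, which drives Cyp4a genes in liver and fatty acid oxidation in heart, ranged from 7.40 to 10.1 FPKM in CON and from 4.58 to 5.85 FPKM in HG. It fell by 0.90 (adjusted p = 2.50e-05). Pparg fell by 0.99 (adjusted p = 0.00349) from 0.791 to 0.341 FPKM, and Ppard and Rxra fell by 0.20 (adjusted p = 0.0325) and 0.17 (adjusted p = 0.0232). Ppara, Pparg and Arnt2 also belong to the study's list of CaMKIIδ-linked genes, so that list is not independent evidence of their direction. The pregnane and constitutive androstane receptors, Nr1i2 and Nr1i3, were near 0 in both groups, as were the Cyp2b, Cyp2c and Cyp3a genes they control in liver. Cyp4a1 had means of 0.0102 and 0.0256 FPKM.

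Across the 7 lists of genes that work with or control these enzymes, 34 of 74 tested passed, 23 higher and 11 lower, beside the 28.4% and 11.8% of all genes. The electron donors and the heme supply changed unevenly, with 3 of 13 higher and 4 lower. Por stood at 18.1 ± 1.65 FPKM for CON hearts and 19.3 ± 2.20 FPKM for HG hearts (SD, n = 5) and did not pass (adjusted p = 0.446), and neither did Fdx1 or the related Fdx2. Cyb5a, cytochrome b5, fell by 0.41 (adjusted p = 7.87e-05) and its reductase Cyb5r3 by 0.16 (adjusted p = 0.00838). Alas1, the first and rate-limiting enzyme of heme synthesis outside red cells, fell by 0.47 (adjusted p = 9.31e-06) from 71.8 ± 3.96 to 51.6 ± 1.90 FPKM (SD, n = 5). Hmox1, which breaks heme down, fell by 0.45 (adjusted p = 0.00602). Pgrmc1, a heme-binding protein that associates with several cytochromes P450, rose by 0.47 (adjusted p = 2.35e-05), and Cyb5r1 and Fdxr rose by 0.27 and 0.25. With median-of-ratios factors, Pgrmc1 was the 1 gene of the 13 that rose, and 5 fell. Red cell markers, of which 5 of 8 tested fell and 2 rose, moved beside these heme genes, and their part in them was not tested.

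**Figure D4:**
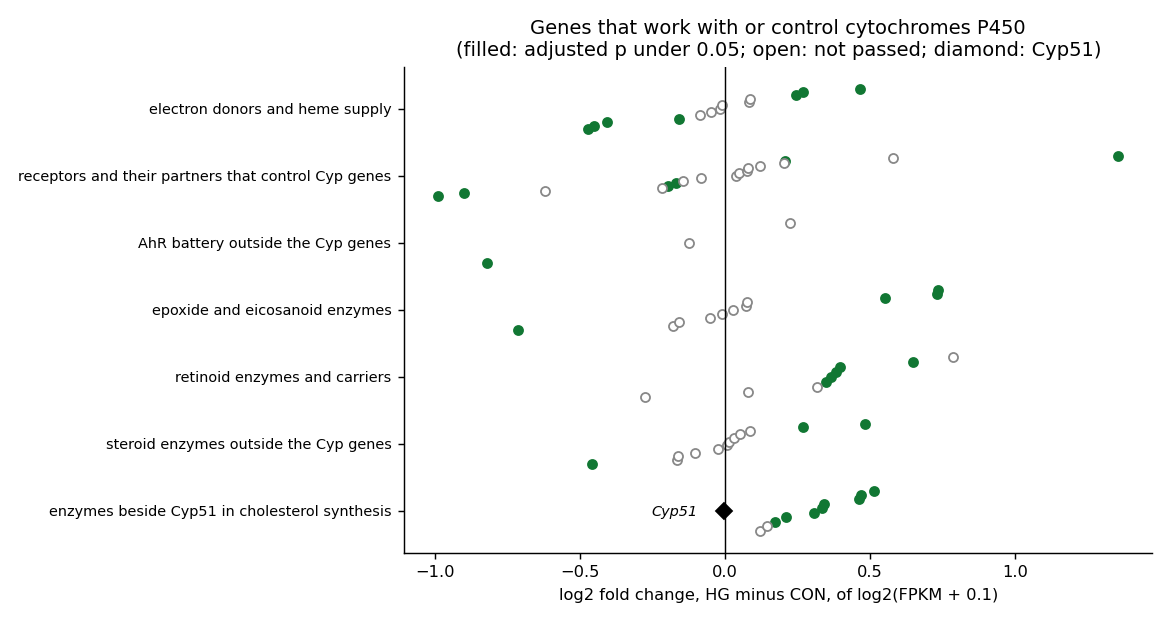
Difference between HG and CON in log2(FPKM + 0.1) for the 7 lists of genes that work with or control cytochromes P450, 1 point per gene, filled where the test was passed; a diamond marks Cyp51 beside the other enzymes of cholesterol synthesis. The 10 enzymes beside Cyp51 lie to the right of 0 and Cyp51 lies at 0, while receptors and electron donors lie on both sides.

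A further 18 Cyp symbols were listed but failed the rule, among them Cyp7a1, Cyp19a1, Cyp1a1, Cyp2c11 and the Cyp4a genes other than Cyp4a1. Together they held at least 42 reads over all 10 libraries, with up to 8 recovered for a gene. Recovered reads are the fewest that fit a gene's values. A gene above 0 in 1 library therefore always counts as 1 read, as did 7 of them. No fold is given for them or for the 10 members under the filter, since all had a mean below 0.1 FPKM. The tested members Cyp26a1, Cyp4f4 and Cyp2d1, had 1 group mean below 0.1 FPKM, and none of the 3 passed.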

How the data were processed

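RNA was extracted from 10 fetal heart samples with TRIzol, made into stranded mRNA libraries and sequenced on an Illumina platform. The study's methods speak of a library from pooled RNA of the 10 samples, but the deposited table has a column for each heart and the columns differ. The submitters' processing notes name fastp, HISAT2, HTSeq, R 3.2.0 and the build mRatBN7.2; the annotation version and gene lengths are not given in the sources used here. The authors deposited FPKM values, which they normalized by gene length and library size, in 1 table of 18025 genes; its columns were matched to samples by name.

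The values stepped in whole reads for 100% of genes (tolerance 0.002 reads), which gave each library's depth. Reads are the fewest that fit, so for genes above 0 in few libraries they are lower bounds. Because the file holds FPKM, the count model of the study's methods was not used. In its place limma 3.58.1 in R 4.3.3 was fitted, with a variance trend, to log2(FPKM + 0.1) wherever a gene averaged 0.1 FPKM or more. The fit was tested on simulated data. Members, roles, partner and marker lists were chosen with earlier results of these data known, and so no list was tested as a set. Values in every heart are given for members past an absolute log2 difference of 1, for those called past 0.5 and for the 8 most abundant; Cyp4v3, Cyp26a1 and Cyp1b1 were added after their values were seen. Alternatives changed the pseudocount, the filter, the scaling, the variance trend, library weights, a replicate block and, in turn, each library, and ran voom on the recovered reads. Ranges of the size of a difference also take in a plain ratio of mean FPKM, as do counts past 1 on the log2 scale. That ratio had no test of its own. Gene IDs of all 56 Cyp symbols matched RefSeq on GRCr8, from which upstream sequences were read; no coordinate was converted between builds. Values of 1 partner gene are not reported here.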

Additional observations from a re-analysis of the deposited data

Results flagged for a closer look

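Of 56 groups of 5 hearts examined, those of the 28 tested cytochrome P450 genes, 1 held a heart far from the others by Dixon's criterion, and chance flags about 1 in 20 such groups. It was Cyp51 in CON, where CON1 stood at 29.1 FPKM and the nearest heart at 25.7 FPKM, a gap of 0.718 of the group's range.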

How the results depend on the processing

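The 7 cytochrome P450 genes that passed did so in every alternative in which they were tested, in the same direction. The count of members called was 3 with a filter at a mean of 1 FPKM, which left 13 members to test, and 7 to 9 otherwise, and leaving out 1 heart at a time gave 7 to 8. Members past an absolute log2 difference of 1 numbered 0 with a pseudocount of 1 and 0 with the filter at 1 FPKM, 2 to 3 otherwise, and 2 to 3 with a heart left out. Partner and regulator genes called ranged from 28 to 35 around 34, and from 30 to 33 with a heart left out. With median-of-ratios factors 47.4% of all calls were higher in HG, against 70.7% as deposited, and the median of all genes moved from 0.09 to 0.01; the members stayed at 3 higher and 4 lower.

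Replicate numbers did not pair the hearts, since the correlations of same-numbered hearts ran from -0.126 to 0.108. The replicate block called 9 members, adding Cyp26a1 (adjusted p = 0.0261) and Cyp26b1 (adjusted p = 0.0470), and 29 partner genes. Cyp26a1 also passed without CON4 (adjusted p = 0.0239), Cyp26b1 without HG4 (adjusted p = 0.0473), Cyp2d4 without HG3 (adjusted p = 0.0372) and Cyp46a1 without HG2 (adjusted p = 0.0260) or without the trend (adjusted p = 0.0250). The cause was not tested. With no filter Cyp2j3 passed as well. No called gene changed sign. Over the alternatives and the ratio of mean FPKM, the size of the difference ranged from 0.34 to 1.00 for Cyp2e1. It ranged from -0.69 to -0.36 for Cyp11a1 and from -0.57 to -0.30 for Cyp4v3. Depth limits the 10 members under the filter, which had at most 7 reads in any library.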
